A study of Mus musculus with 12 samples.

Results

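The genes described here drive or mark cell division: 50 mouse genes of DNA replication, the G1/S transition, G2 and mitosis, listed by name. They were found on the array by gene symbol, with the probe set of the highest mean over the 12 arrays for each gene, and 46 of the 50 were measured, out of 19505 named genes and 22206 transcript clusters. Of these 46 genes, 18 act in replication and at the G1/S transition and 28 in G2 and mitosis. Mcm7, Ccnd1, Ccnb1 and Foxm1 were not analysed here.

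RNA came from the annulus fibrosus (AF), the fibrous outer ring of the intervertebral disc, and the nucleus pulposus (NP), its gelatinous core. There were 4 groups of 3 arrays each: AF of TonEBP +/- mice, AF of wild-type (WT) mice, NP of TonEBP +/- mice and NP of WT mice. All mice were 12 months old and of the C57BL/6 background, and TonEBP +/- mice are haploinsufficient for TonEBP, a transcription factor of the response to osmotic stress. Each sample was the tissue pooled from the lumbar discs of 1 animal, and the labels do not say which AF and NP samples came from 1 mouse.

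Dividing cells first copy their DNA and then separate the copies. E2F factors switch on the enzymes of nucleotide synthesis and the replication helicase at the G1/S transition, and a later wave of genes, many with a cell cycle homology region (CHR) in the promoter, builds the mitotic spindle and its checkpoint. Most cells of the adult disc divide rarely, whereas blood cell precursors of the bone marrow divide often.

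The median signal lay between 7.43 and 7.64 log2 on AF arrays and between 6.82 and 6.87 on NP arrays. The background level, the 95th percentile of the background probe sets of an array, was 7.73 to 7.98 in AF and 7.11 to 7.33 in NP. AF TonEBP +/- array 3 stood apart, since its interquartile range was 3.11 log2 and that of the other AF arrays 2.36 to 2.66. NP and notochord markers averaged 13.8 to 14.2 log2 on the NP arrays and 8.58 to 10.5 on the AF arrays. Of these NP markers, Nog was above background on no array, and its signal was lower in NP than in AF. Of 7 annulus and tendon markers Col1a1, Col1a2, Fmod and Lum were above background on all AF arrays, and Scx, Tnmd and Mkx on no array of either tissue. Fmod was nonetheless higher in NP, at 17.8 to 18.7 log2 against 12.0 to 14.8 in AF. Col1a1 was above background on all NP arrays too. With 3 arrays a group, precision is limited throughout.

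The genotype difference of 9 genes differed between AF and NP, and 8 of them had a promoter window. The promoters of 6 of these, which span both classes, are shown, and those of Plk1 and Ccnb2 are not. Each line holds the 250 bases before the first transcription start that RefSeq lists on GRCm38.p6, 5′ to 3′ on the gene's strand, with motif matches in capitals. The motifs searched on both strands were the CHR (TTTGAA or TTCGAA), the CCAAT box (CCAAT) and the E2F motif (TTCCCGC or TTGGCGC). In E2f8 a CCAAT box and an E2F match overlap, and in Ube2c a pair of CCAAT boxes on opposite strands overlap.
Rrm2 (chr12:24708004-24708253, plus strand): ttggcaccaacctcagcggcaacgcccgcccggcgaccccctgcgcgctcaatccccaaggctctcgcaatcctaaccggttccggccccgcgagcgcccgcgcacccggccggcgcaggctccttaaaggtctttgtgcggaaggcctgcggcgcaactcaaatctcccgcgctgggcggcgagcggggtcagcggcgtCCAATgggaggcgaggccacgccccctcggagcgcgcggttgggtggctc
Mcm5 (chr8:75109259-75109508, plus strand): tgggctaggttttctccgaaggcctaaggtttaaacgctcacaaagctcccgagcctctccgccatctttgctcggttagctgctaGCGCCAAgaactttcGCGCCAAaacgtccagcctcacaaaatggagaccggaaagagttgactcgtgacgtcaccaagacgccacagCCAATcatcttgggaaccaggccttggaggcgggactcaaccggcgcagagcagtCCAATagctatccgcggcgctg
E2f8 (chr7:48881597-48881846, minus strand): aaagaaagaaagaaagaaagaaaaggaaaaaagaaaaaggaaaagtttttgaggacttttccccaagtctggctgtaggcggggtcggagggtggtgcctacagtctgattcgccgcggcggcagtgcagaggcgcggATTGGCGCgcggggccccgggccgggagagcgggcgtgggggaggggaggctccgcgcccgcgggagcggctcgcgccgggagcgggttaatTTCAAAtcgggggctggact
Mki67 (chr7:135716380-135716629, minus strand): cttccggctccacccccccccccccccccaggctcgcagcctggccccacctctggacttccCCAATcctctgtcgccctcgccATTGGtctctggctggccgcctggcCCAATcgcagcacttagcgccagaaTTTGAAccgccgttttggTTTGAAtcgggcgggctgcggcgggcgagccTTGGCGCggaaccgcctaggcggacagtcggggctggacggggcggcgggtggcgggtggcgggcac
Ube2c (chr2:164769679-164769928, plus strand): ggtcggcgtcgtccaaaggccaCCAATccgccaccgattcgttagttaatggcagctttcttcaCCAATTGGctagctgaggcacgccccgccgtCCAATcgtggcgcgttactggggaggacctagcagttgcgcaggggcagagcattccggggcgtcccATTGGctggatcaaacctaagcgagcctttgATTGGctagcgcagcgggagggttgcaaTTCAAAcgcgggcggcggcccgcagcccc
Bub3 (chr7:131560120-131560369, plus strand): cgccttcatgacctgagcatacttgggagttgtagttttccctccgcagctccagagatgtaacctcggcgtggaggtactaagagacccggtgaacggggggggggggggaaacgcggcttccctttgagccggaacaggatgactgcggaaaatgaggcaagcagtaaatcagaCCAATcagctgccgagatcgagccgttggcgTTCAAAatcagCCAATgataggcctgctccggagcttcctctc

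In these sequences the mitotic genes Ube2c and Bub3 each hold a CHR and CCAAT boxes, Mki67 and E2f8 hold all 3 motifs, Mcm5 holds E2F motifs and CCAAT boxes, and Rrm2 holds a CCAAT box alone. Of the genes not shown, Plk1 holds a CCAAT box alone before the start and a CHR after it. Ccnb2 holds a CHR and CCAAT boxes before the start. Over windows of 300 bases (250 before and 50 after the start), available for 41 of the 50 listed genes, a CHR was present in 20 of 25 G2 and mitosis genes (80.0%), 4 of 16 replication genes and 21.7% of all 27018 genes with a window. A CCAAT box was present in 84.0% of mitosis genes, 68.8% of replication genes and 41.1% of all genes. An E2F motif was present in 4 of 25 mitosis genes, 8 of 16 replication genes and 7.79% of all genes. These matches describe letters in a window and are not measured binding.

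In AF, 6 of the 46 genes were higher in TonEBP +/- mice than in WT mice, and none passed downwards (limma adjusted p under 0.05, over all clusters), where 2.76% of all clusters were called higher and 3.31% lower. They were the ribonucleotide reductase subunits Rrm1 and Rrm2, which make deoxynucleotides, the helicase subunit Mcm5, the spindle checkpoint genes Bub1 and Bub3, and the mitotic kinesin Kif20a. By sign, 44 of the 46 differences were above zero, as were 46.4% of those of all clusters. The median difference was 0.44 log2 over the replication genes and 0.74 over the mitosis genes, beside -0.04 over all clusters. For 16 of the 46 genes all AF TonEBP +/- arrays lay above all AF WT arrays, which was so for 10.0% of all clusters, and for 0 genes the reverse held (12.3% of all clusters).

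Rrm2 was at 13.24, 12.74 and 13.61 log2 in AF of TonEBP +/- mice and at 12.11, 11.72 and 12.12 in AF of WT mice. The groups did not overlap, and array 3 of the TonEBP +/- mice was the highest. The difference was 1.21 log2 (SE 0.297, limma adjusted p = 0.0295), a 2.32-fold rise. Rrm1, the larger subunit, was at 12.55, 12.58 and 12.95 in AF of TonEBP +/- mice and at 11.90, 11.54 and 12.13 in AF of WT mice. Rrm1 rose by 0.84 log2 (SE 0.222, limma adjusted p = 0.0388), again without overlap, and was not called with an intensity trend (adjusted p = 0.0513). Mcm5 was at 10.50, 9.54 and 10.50 in AF of TonEBP +/- mice and at 9.07, 8.63 and 8.74 in AF of WT mice. Arrays 1 and 3 of the TonEBP +/- mice were above array 2, and the rise was 1.37 log2 (SE 0.266, limma adjusted p = 0.0162).

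Bub3, whose protein holds checkpoint kinases at kinetochores, was at 12.46, 12.53 and 12.93 log2 in AF of TonEBP +/- mice and at 11.02, 11.10 and 11.00 in AF of WT mice. The 2 groups lay more than 1 log2 apart, and the rise was 1.60 log2 (SE 0.212, 3.03-fold, limma adjusted p = 0.0044). Bub1, a checkpoint kinase, was at 10.19, 10.44 and 11.52 in AF of TonEBP +/- mice and at 9.59, 9.48 and 9.66 in AF of WT mice. Bub1 rose by 1.14 log2 (SE 0.312, limma adjusted p = 0.0430), with array 3 of the TonEBP +/- mice more than 1 log2 above the other arrays, and was not called with gene-by-gene array weights (adjusted p = 0.0737). Kif20a, a kinesin of cell cleavage, was at 10.59, 10.51 and 11.28 in AF of TonEBP +/- mice and at 9.53, 9.60 and 9.73 in AF of WT mice. Its rise was 1.17 log2 (SE 0.253, limma adjusted p = 0.0219).

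Several genes separated the AF groups without passing. Pcna, the sliding clamp of DNA polymerase, was at 16.40, 16.05 and 16.37 log2 in AF of TonEBP +/- mice and at 15.36, 15.51 and 15.65 in AF of WT mice (difference 0.77, limma adjusted p = 0.0505). Plk1, a kinase of mitotic entry, was at 12.58, 12.42 and 13.20 in AF of TonEBP +/- mice and at 11.60, 11.50 and 11.44 in AF of WT mice (difference 1.22, limma adjusted p = 0.0576). Both gaps were wider than the spread within a group, and neither gene was called. Ccnb2, a mitotic cyclin, was at 11.92, 11.49 and 12.42 in AF of TonEBP +/- mice and at 10.91, 10.96 and 11.12 in AF of WT mice (difference 0.95, limma adjusted p = 0.0703).

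AF TonEBP +/- array 3 was the highest of the 6 AF arrays for all 28 mitosis genes and for 10 of the 18 replication genes. Without it the median difference was 0.43 log2 for the mitosis genes and 0.29 for the replication genes, and of the 6 calls only Bub3 was kept (difference 1.45, limma adjusted p = 0.0146). Differences above zero then numbered 13 of 18 in the replication genes and 27 of 28 in the mitosis genes. Leaving out AF TonEBP +/- array 1, 2 or 3 gave 2, 18 or 1 called genes, and leaving out AF WT array 1, 2 or 3 gave 2, 1 or 3. Of all clusters the same fits called 267, 4029 or 81 and 463, 193 or 576, against 1347 with all arrays. Over all 12 omissions, of NP arrays too, Bub3 was called in 12, Mcm5 and Kif20a in 9 each, Rrm2 in 7, and Rrm1 and Bub1 in 2 each. From the AF arrays alone, without the spread shared with NP, 0 of the 46 genes and 3 of all clusters were called by limma, while 23 of the 46 were higher at an unadjusted p under 0.05 in the fit to all 12 arrays, and 0 lower (11.4% and 11.8% of all clusters). Markers of several cell types differed between the same AF arrays. Of the neutrophil and myeloid precursor markers, 5 of 14 were called higher, and their mean was 16.1 to 16.9 log2 on the AF TonEBP +/- arrays and 15.1 to 15.6 on the AF WT arrays, with only Cebpe above background on no AF WT array. Ngp and Lcn2 lay at the highest signal of every AF array, so a rise of these markers in AF could not be seen. Macrophage markers averaged 8.40 to 9.45 in AF of TonEBP +/- mice and 7.95 to 8.24 in AF of WT mice, and erythroid markers 10.9 to 11.5 in AF of TonEBP +/- mice and 11.2 to 11.4 in AF of WT mice. Of the 9 macrophage markers 2 were called higher and 0 lower, and 1 was below zero, Cd163 (-0.49 log2), which was above background on no array. Of the 7 erythroid markers 0 were called, with 4 above zero and 3 below. B cell precursor markers averaged 7.99 to 8.13 in AF of TonEBP +/- mice and 7.99 to 8.19 in AF of WT mice. Of these 9 markers 6 were below zero and 0 were called. Of 4 endothelial markers 1 was called higher, Kdr, which was above background on no AF WT array, and their mean was 8.22 to 9.40 in AF of TonEBP +/- mice and 7.41 to 8.16 in AF of WT mice. Of the annulus and tendon markers 3 of 7 were called higher, Col1a1 (4.18 log2), Col1a2 (3.70) and Lum (1.62), and Fmod was called lower (-2.11). Of the cartilage matrix markers 2 of 4 were called lower, Acan (-2.03) and Sox9 (-1.55), and their mean was 12.6 to 13.6 in AF of TonEBP +/- mice and 13.2 to 15.0 in AF of WT mice. All 6 NP and notochord markers were below zero, with Krt19 called lower (-2.19). The part of these cells in the AF result was not tested, and in bulk tissue fewer cells of a type and less RNA per cell cannot be told apart.

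**Figure D1:**
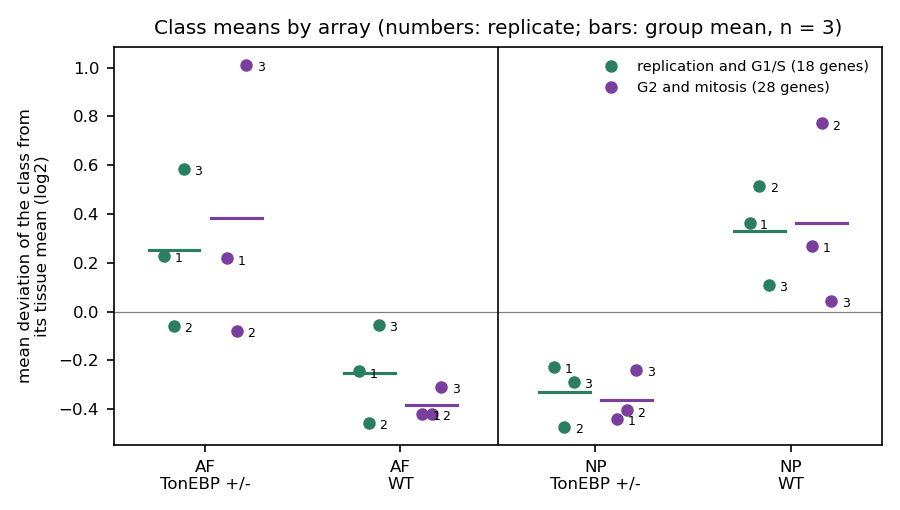
Mean deviation of the replication and G1/S genes (18, green) and of the G2 and mitosis genes (28, purple) on each array from their mean over the 6 arrays of the same tissue, in log2; points are arrays, numbered by replicate, and bars are group means (n = 3). The mitosis mean was highest on AF TonEBP +/- array 3 (1.01) among AF arrays and on NP WT array 2 (0.77) among NP arrays.

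In NP the differences ran the other way: 2 of the 46 genes, Mki67 and E2f8, were lower in TonEBP +/- mice than in WT mice and 0 were higher (limma adjusted p under 0.05), where 0.113% of all clusters were called lower and 0% higher. Of the 46 differences, 42 were below zero, with a median of -0.48 log2 over the replication genes and -0.63 over the mitosis genes, beside 0.01 over all clusters. For 23 genes all NP TonEBP +/- arrays lay below all NP WT arrays, which was so for 5.93% of all clusters, and for 0 genes above them (5.34%). Many values were low: 32 of the 46 genes were above background on no NP array of TonEBP +/- mice, and 18 on no NP array of WT mice.

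Mki67, the proliferation antigen Ki-67 that coats mitotic chromosomes, was at 9.23, 8.73 and 9.65 log2 in NP of TonEBP +/- mice and at 12.02, 13.06 and 11.22 in NP of WT mice. All 3 TonEBP +/- arrays lay below all WT arrays, and array 2 of the WT mice was the highest. The fall was -2.90 log2 (SE 0.380, 7.44-fold, limma adjusted p = 0.0079). E2f8, an atypical E2F that represses E2F targets late in S phase, was at 6.81, 7.49 and 7.61 in NP of TonEBP +/- mice and at 9.57, 10.32 and 8.97 in NP of WT mice. E2f8 fell by -2.32 log2 (SE 0.351, limma adjusted p = 0.0187), and 2 of its 3 values in TonEBP +/- mice were above background.

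The next genes did not pass in NP. Ube2c, which loads ubiquitin for the anaphase-promoting complex, was at 6.14, 5.96 and 6.64 log2 in NP of TonEBP +/- mice, none above background, and at 7.72, 8.90 and 7.54 in NP of WT mice. Against the mean background level it was at least 1.83-fold lower (limma adjusted p = 0.0656). Rrm2 was at 7.35, 6.91 and 7.51 in NP of TonEBP +/- mice and at 8.57, 9.14 and 8.07 in NP of WT mice (difference -1.33, limma adjusted p = 0.127). Plk1 was at 6.47, 6.97 and 6.89 in NP of TonEBP +/- mice and at 7.61, 9.05 and 7.24 in NP of WT mice, at least 1.72-fold lower (limma adjusted p = 0.623). In all of these the NP groups did not overlap, and NP WT array 2 was the highest. Kif11, the motor that pushes spindle poles apart, was at 6.69, 6.94 and 7.58 in NP of TonEBP +/- mice and at 7.61, 8.85 and 8.06 in NP of WT mice (difference -1.10, limma adjusted p = 0.623). Ccne1, a cyclin of S phase entry, was at 7.31, 6.67 and 6.89 in NP of TonEBP +/- mice and at 7.47, 8.20 and 7.57 in NP of WT mice (difference -0.79, limma adjusted p = 0.668).

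Bub3, called in AF, was not called in NP, where it was at 12.82, 12.87 and 12.54 log2 in NP of TonEBP +/- mice and at 12.66, 12.67 and 12.78 in NP of WT mice. These groups overlap, and the difference was 0.04 log2 (95% CI -0.41 to 0.49). NP WT array 2 was the highest of the 6 NP arrays for 18 of the 28 mitosis genes and 9 of the 18 replication genes. Without it the fall of Mki67 was -2.41 log2 (limma adjusted p = 0.0243) and that of E2f8 -1.97 (limma adjusted p = 0.180). E2f8 also missed the threshold without NP WT array 1 (limma adjusted p = 0.0949) and without NP TonEBP +/- arrays 1 or 2 (0.0715 and 0.0821), and Mki67 without NP TonEBP +/- array 2 (0.0773). Leaving out NP TonEBP +/- array 1, 2 or 3 gave 1, 0 or 2 called genes, and leaving out NP WT array 1, 2 or 3 gave 1, 1 or 5. The NP arrays alone gave 0 (limma), and in the fit to all 12 arrays 17 genes were lower and 0 higher at an unadjusted p under 0.05 (2.52% and 1.20% of all clusters).

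Most neutrophil, erythroid and B cell precursor markers were lower in the same NP samples, and macrophage markers were mixed. Neutrophil and myeloid precursor markers averaged 8.58 to 10.2 log2 on the NP TonEBP +/- arrays and 10.8 to 12.3 on the NP WT arrays, with 14 of 14 differences below zero and 3 called. Prtn3, Ctsg, Cebpe, Camp and Fcnb were above background on no NP array of TonEBP +/- mice, and Cebpe on none of WT mice. Erythroid markers averaged 6.63 to 6.77 in NP of TonEBP +/- mice and 7.74 to 8.82 in NP of WT mice, with 2 of 7 called lower. Macrophage markers averaged 5.98 to 6.31 in NP of TonEBP +/- mice and 6.18 to 6.57 in NP of WT mice. Their differences were below zero for 6 of 9 and above zero for 3, with a median of -0.05 log2 and 0 called. B cell precursor markers averaged 5.10 to 5.30 in NP of TonEBP +/- mice and 5.54 to 5.85 in NP of WT mice. Of these 9 markers 8 were below zero and 0 were called, and 8 were above background on no NP array of TonEBP +/- mice. The part of these cells in the NP result was not tested.

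**Figure D2:**
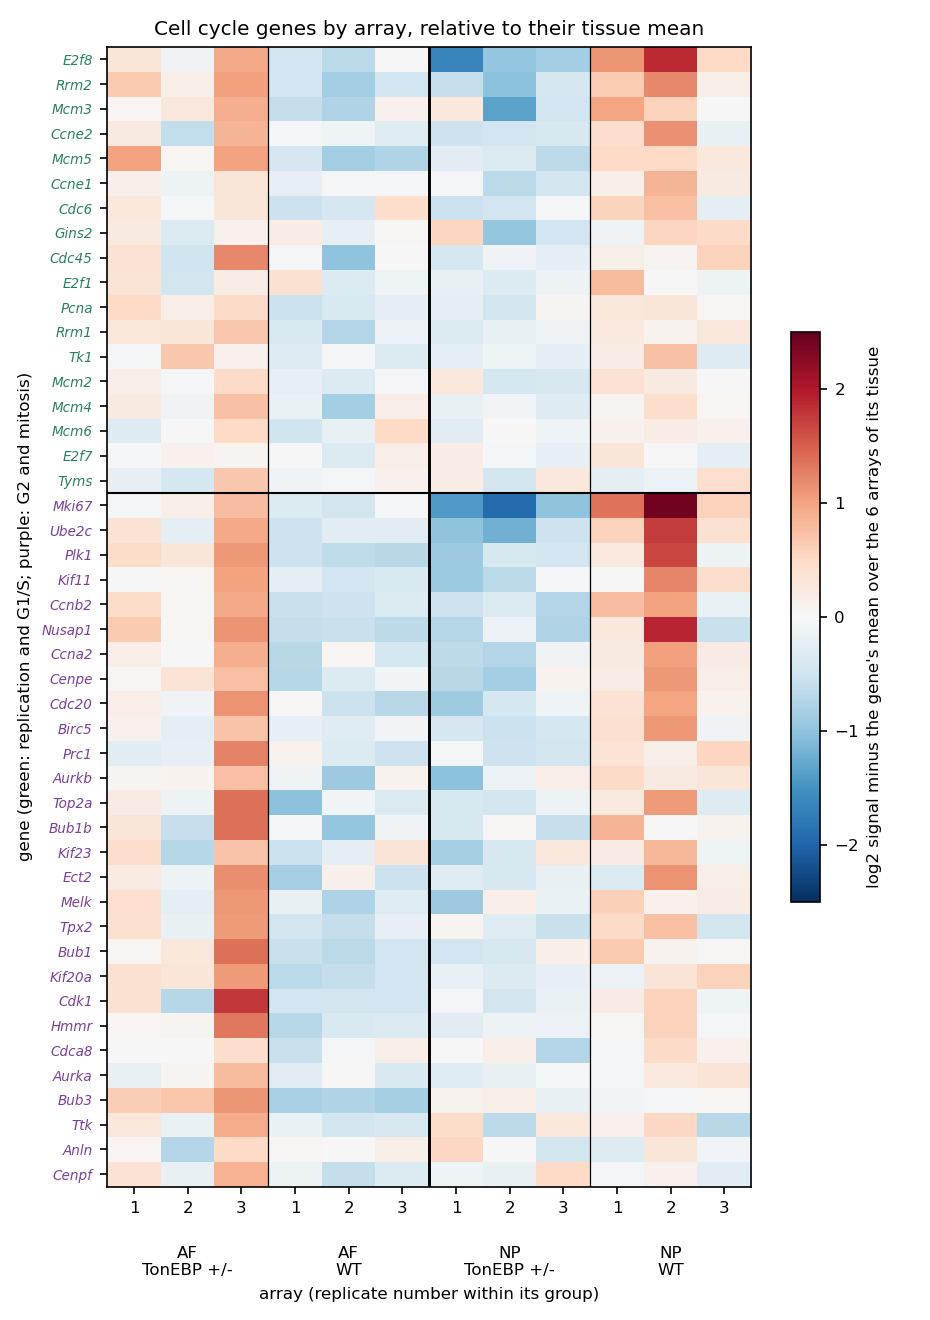
Log2 signal of each of the 46 genes (rows; 18 replication and G1/S genes in green, 28 G2 and mitosis genes in purple, ordered by their NP difference) on each of the 12 arrays (columns), minus the gene's mean over the 6 arrays of its tissue. AF TonEBP +/- array 3 was the highest AF array for all 28 mitosis genes, and NP WT array 2 was the highest NP array for 18 of them.

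The interaction term asked whether the genotype difference was the same in both tissues. It was lower in NP than in AF for 9 of the 46 genes and higher for 0 (limma adjusted p under 0.05), where 0.766% of all clusters were called lower and 0.122% higher. The difference in NP minus that in AF was -3.47 log2 for Mki67 (SE 0.537, limma adjusted p = 0.0109) and -3.10 for E2f8 (SE 0.497, limma adjusted p = 0.0129). It was -2.55 for Rrm2 and -2.21 for Mcm5, the other replication genes called. Among mitosis genes it was -2.52 for Ube2c, -2.41 for Plk1, -2.02 for Ccnb2 (not called after quantile normalization, limma adjusted p = 0.0502), -1.66 for Kif20a and -1.56 for Bub3. Where NP values lie below background, the size is not exact. In NP, Mcm5 was at 6.31, 6.21 and 5.92 log2 in TonEBP +/- mice and at 7.08, 7.07 and 6.82 in WT mice. None of these was above background. Ccnb2 in NP was at 6.32, 6.47 and 6.09 in TonEBP +/- mice and at 7.61, 7.83 and 6.66 in WT mice. Kif20a in NP was at 6.82, 6.66 and 6.81 in TonEBP +/- mice and at 6.86, 7.33 and 7.58 in WT mice. Both were above background on 0 of 3 TonEBP +/- arrays and 2 of 3 WT arrays.

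The genes reached this difference in unlike ways. Mki67 passed in NP and not in AF, with 16.95, 17.15 and 17.78 log2 in AF of TonEBP +/- mice and 16.66, 16.54 and 16.96 in AF of WT mice, a difference of 0.57 (limma adjusted p = 0.393). E2f8 was likewise at 14.02, 13.63 and 14.68 in AF of TonEBP +/- mice and at 13.25, 13.04 and 13.70 in AF of WT mice, groups that overlap. Bub3 passed in AF and not in NP, and Rrm2 separated the genotypes in both tissues in opposite directions. Of the 46 genes, 41 (89.1%) were above zero in AF and below zero in NP, as were 21.8% of all clusters, and these AF and NP comparisons share no array. Across the 46 genes, which are not independent, the AF and NP differences had Pearson's r = -0.202 and Spearman's rho = -0.309. Leaving out AF TonEBP +/- array 1, 2 or 3 gave 5, 25 or 5 called genes, and AF WT array 1, 2 or 3 gave 7, 1 or 4. Leaving out NP TonEBP +/- array 1, 2 or 3 gave 4, 2 or 5, and NP WT array 1, 2 or 3 gave 4, 2 or 9. Neutrophil and myeloid precursor markers were called lower for 9 of 14 and erythroid markers for 3 of 7 in the same term. B cell precursor markers were called for 0 of 9, and the part of these lists was not tested. Over the 12 omissions Mki67 was called in 12, E2f8 in 11, Rrm2 and Mcm5 in 9 each, Bub3 in 5, Ube2c in 4, Plk1 in 3, Ccnb2 in 2 and Kif20a in 1.

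**Figure D3:**
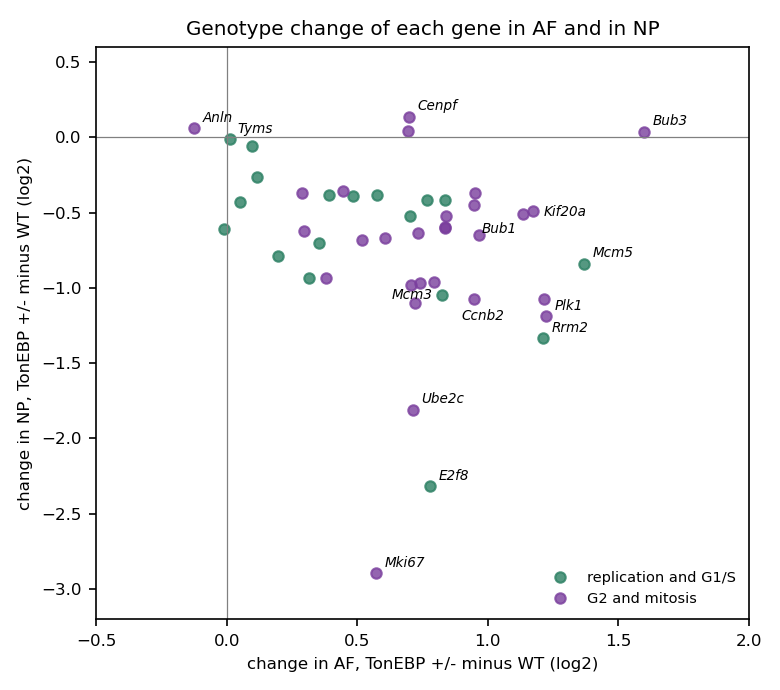
Difference between TonEBP +/- and WT (log2) in AF on the horizontal axis and in NP on the vertical axis; each point is a gene, green for replication and G1/S and purple for G2 and mitosis. Of the 46 genes, 41 lie to the right of zero and below it, with Mki67 at 0.57 and -2.90 and Bub3 at 1.60 and 0.04.

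Averaged over both tissues, 0 of the 46 genes were called in TonEBP +/- against WT mice (limma), where 0.00450% of all clusters were. At an unadjusted p under 0.05 there were 1 gene higher and 3 lower, against 6.13% and 8.10% of all clusters. Without AF TonEBP +/- array 2 the count was 2.

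**Figure D4:**
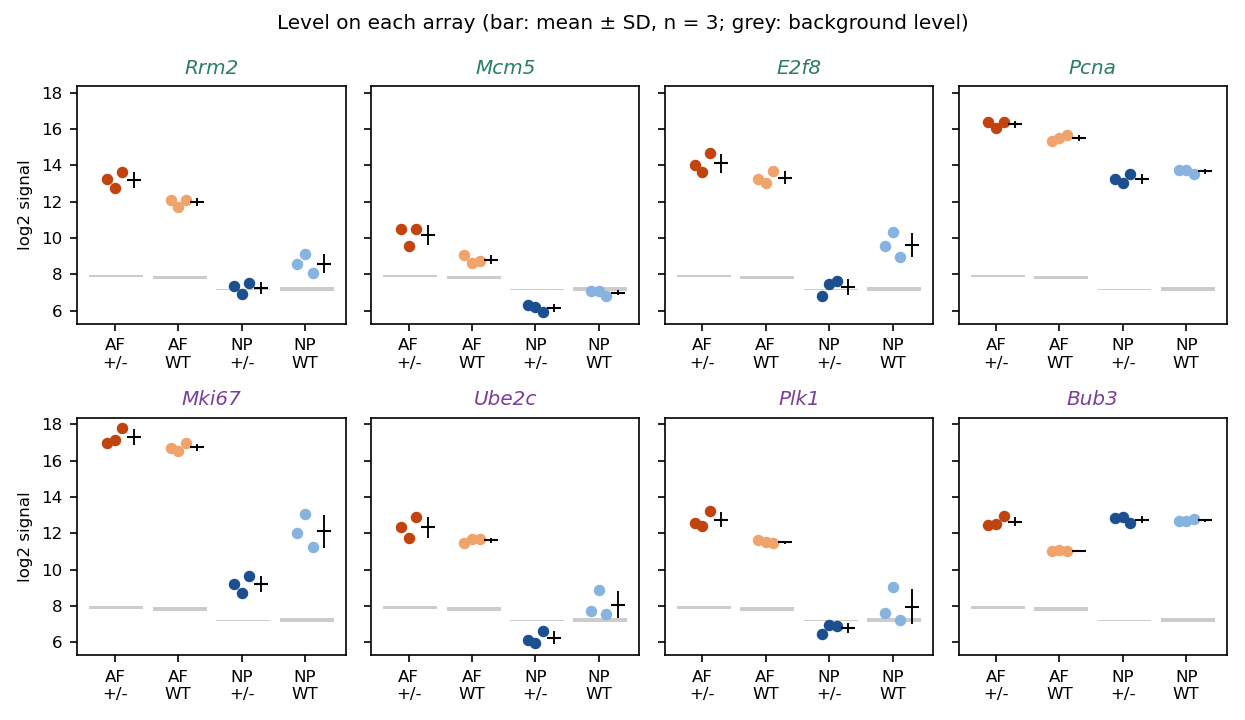
Log2 signal on each array of 4 replication and G1/S genes (top) and 4 G2 and mitosis genes (bottom) in AF of TonEBP +/- and WT mice and NP of TonEBP +/- and WT mice; points are arrays, black bars the mean ± SD (n = 3), and grey bands the background level. Mki67 lies at 9.23, 8.73 and 9.65 in NP of TonEBP +/- mice, below all NP WT arrays, and Bub3 is the lowest in AF of WT mice.

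Between the tissues, taken relative to each array's median, most of the 46 cell cycle genes were lower in NP than in AF. In TonEBP +/- mice 45 of the 46 genes were lower and 1, Bub3, was higher (25.3% and 30.9% of all clusters), and in WT mice 40 were lower and 1, Bub3, was higher (31.3% and 33.7% of all clusters). The median difference between NP and AF was -3.62 log2 over the mitosis genes and -2.09 over the replication genes in TonEBP +/- mice. In WT mice it was -2.09 over the mitosis genes and -1.01 over the replication genes. Mki67 was lower in NP by the widest margin, -7.40 log2 in TonEBP +/- mice and -3.88 in WT mice. E2f8 followed among replication genes, at -6.12 in TonEBP +/- mice and -2.97 in WT mice, then Rrm2 at -5.25 in TonEBP +/- mice and -2.65 in WT mice. Among mitosis genes, Ube2c was at least 21.9-fold lower in NP of TonEBP +/- mice, Plk1 at least 29.1-fold and Ccnb2 at least 16.8-fold. All 6 of these genes passed in both genotypes.

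In WT mice the mitosis genes with the next widest margins were Kif23, a kinesin of the central spindle (-3.40 log2), Ccnb2 (-2.89) and Ube2c (-2.82). Among replication genes these were Tyms, the thymidylate synthase (-2.24), and Mcm3, a helicase subunit (-1.98). Bub3 was higher in NP by 0.79 log2 in TonEBP +/- mice and by 2.40 in WT mice. The TonEBP +/- value of Bub3 did not pass on the deposited values or after quantile normalization. In WT mice Rrm1, Mcm4, Cdc45, E2f1 and Cenpf did not pass (limma adjusted p = 0.399, 0.262, 0.195, 0.131 and 0.0745). Neutrophil, erythroid and B cell precursor markers were lower in NP too. In each genotype 14 of 14 neutrophil, 7 of 7 erythroid and 9 of 9 B cell precursor markers were called lower. Of 9 macrophage markers 6 were called lower in WT mice and 7 in TonEBP +/- mice. Csf1r was called higher in both, by 3.45 log2 in WT mice and 1.43 in TonEBP +/- mice. The part of these cells was not tested.

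**Figure D5:**
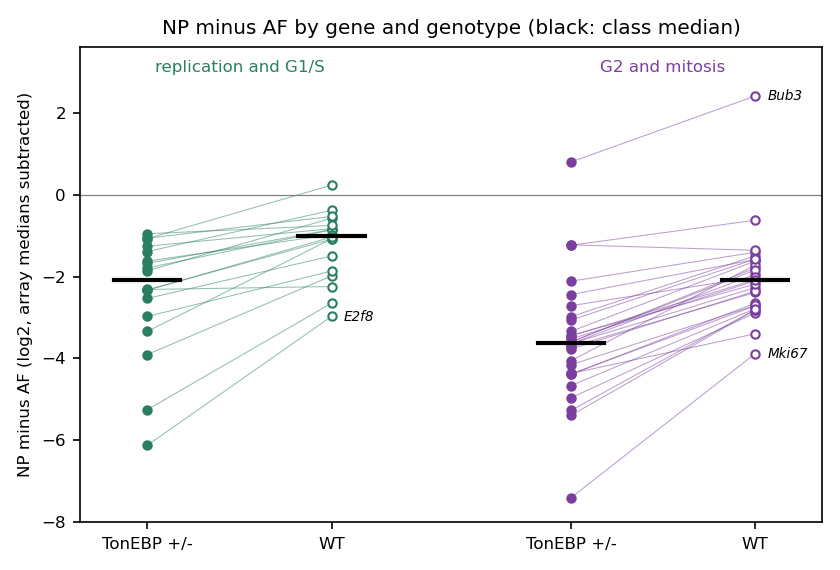
Difference between NP and AF for each gene (log2, array medians subtracted) in TonEBP +/- mice (filled) and WT mice (open), by class; lines join the values of 1 gene and black bars mark class medians. The medians are -2.09 in TonEBP +/- mice and -1.01 in WT mice for replication and G1/S genes, and -3.62 in TonEBP +/- mice and -2.09 in WT mice for G2 and mitosis genes.

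The remaining replication genes passed in neither genotype comparison and are given as group means (log2 ± SD, n = 3 each). Mcm2, Mcm4 and Mcm6, helicase subunits like Mcm5, were above background on all 12 arrays. Mcm2 averaged 11.12 ± 0.27 in AF of TonEBP +/- mice and 10.73 ± 0.15 in AF of WT mice, and 8.75 ± 0.39 in NP of TonEBP +/- mice and 9.14 ± 0.18 in NP of WT mice. Mcm4 averaged 10.20 ± 0.42 in AF of TonEBP +/- mice and 9.63 ± 0.51 in AF of WT mice, and 8.12 ± 0.13 in NP of TonEBP +/- mice and 8.50 ± 0.22 in NP of WT mice. Mcm6 averaged 12.55 ± 0.41 in AF of TonEBP +/- mice and 12.43 ± 0.51 in AF of WT mice, and 10.60 ± 0.14 in NP of TonEBP +/- mice and 10.86 ± 0.05 in NP of WT mice. Relative to array medians, the NP values of Mcm2 and Mcm6 passed as lower than those of AF in WT mice and that of Mcm4 did not. The next genes, which load or complete the helicase, were near or below background in NP. Mcm3 averaged 10.53 ± 0.44 in AF of TonEBP +/- mice and 9.71 ± 0.46 in AF of WT mice, and 5.94 ± 0.80 in NP of TonEBP +/- mice and 6.98 ± 0.50 in NP of WT mice. Cdc45, a helicase cofactor, averaged 9.75 ± 0.85 in AF of TonEBP +/- mice and 9.04 ± 0.57 in AF of WT mice, and 7.20 ± 0.18 in NP of TonEBP +/- mice and 7.72 ± 0.28 in NP of WT mice. Cdc6, the helicase loader, averaged 9.36 ± 0.19 in AF of TonEBP +/- mice and 9.00 ± 0.54 in AF of WT mice, and 5.69 ± 0.28 in NP of TonEBP +/- mice and 6.40 ± 0.53 in NP of WT mice. In nucleotide synthesis, the Tyms means of the genotypes differed by 0.01 log2 in AF and -0.01 in NP, signs that turned with the scaling. Tk1 separated the AF groups narrowly, with the lowest TonEBP +/- array at 8.058 and the highest WT array at 8.053. Tyms averaged 10.76 ± 0.59 in AF of TonEBP +/- mice and 10.75 ± 0.10 in AF of WT mice, and 7.75 ± 0.40 in NP of TonEBP +/- mice and 7.76 ± 0.36 in NP of WT mice. Tk1, thymidine kinase, averaged 8.35 ± 0.38 in AF of TonEBP +/- mice and 7.86 ± 0.17 in AF of WT mice, and 5.87 ± 0.08 in NP of TonEBP +/- mice and 6.26 ± 0.53 in NP of WT mice. Both next genes overlap between the AF groups. Ccne2, a cyclin of S phase entry, averaged 9.62 ± 0.73 in AF of TonEBP +/- mice and 9.31 ± 0.14 in AF of WT mice, and 6.60 ± 0.06 in NP of TonEBP +/- mice and 7.53 ± 0.66 in NP of WT mice. E2f7, an atypical E2F like E2f8, averaged 7.82 ± 0.07 in AF of TonEBP +/- mice and 7.72 ± 0.26 in AF of WT mice, and 6.17 ± 0.19 in NP of TonEBP +/- mice and 6.22 ± 0.27 in NP of WT mice. The last of this class, Gins2 and E2f1, were above background on no array. Gins2, a helicase cofactor, averaged 7.22 ± 0.31 in AF of TonEBP +/- mice and 7.23 ± 0.20 in AF of WT mice, and 4.91 ± 0.76 in NP of TonEBP +/- mice and 5.52 ± 0.34 in NP of WT mice. E2f1, the founding activator E2F, averaged 6.49 ± 0.42 in AF of TonEBP +/- mice and 6.44 ± 0.37 in AF of WT mice, and 4.74 ± 0.12 in NP of TonEBP +/- mice and 5.17 ± 0.50 in NP of WT mice.

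The remaining mitosis genes likewise passed in neither genotype comparison and are given in the same unit (log2 ± SD, n = 3 each). The first of them act at mitotic entry and exit. Top2a, the topoisomerase that untangles chromosomes, averaged 11.11 ± 0.79 in AF of TonEBP +/- mice and 10.15 ± 0.49 in AF of WT mice, and 6.04 ± 0.18 in NP of TonEBP +/- mice and 6.69 ± 0.70 in NP of WT mice. Ccna2, a cyclin, averaged 10.81 ± 0.49 in AF of TonEBP +/- mice and 10.10 ± 0.38 in AF of WT mice, and 5.73 ± 0.35 in NP of TonEBP +/- mice and 6.71 ± 0.47 in NP of WT mice. Cdk1, its kinase partner, averaged 8.63 ± 1.24 in AF of TonEBP +/- mice and 7.69 ± 0.02 in AF of WT mice, and 3.79 ± 0.22 in NP of TonEBP +/- mice and 4.24 ± 0.34 in NP of WT mice. Cdk1 ran from 7.45 to 9.93 in AF of TonEBP +/- mice, the widest spread among the 46 genes within an AF group. Anaphase and the spindle checkpoint come next. Cdc20, the anaphase activator, averaged 9.40 ± 0.64 in AF of TonEBP +/- mice and 8.60 ± 0.38 in AF of WT mice, and 5.11 ± 0.39 in NP of TonEBP +/- mice and 6.07 ± 0.46 in NP of WT mice. Bub1b, a checkpoint gene, averaged 10.26 ± 0.98 in AF of TonEBP +/- mice and 9.53 ± 0.52 in AF of WT mice, and 6.04 ± 0.31 in NP of TonEBP +/- mice and 6.68 ± 0.46 in NP of WT mice. Ttk, a checkpoint kinase, averaged 8.68 ± 0.55 in AF of TonEBP +/- mice and 7.98 ± 0.16 in AF of WT mice, and 5.27 ± 0.60 in NP of TonEBP +/- mice and 5.23 ± 0.62 in NP of WT mice. The Aurora kinases and their partners in the chromosomal passenger complex overlap between the AF groups. Aurka averaged 9.58 ± 0.50 in AF of TonEBP +/- mice and 9.13 ± 0.19 in AF of WT mice, and 6.45 ± 0.14 in NP of TonEBP +/- mice and 6.81 ± 0.18 in NP of WT mice. Aurkb averaged 10.79 ± 0.40 in AF of TonEBP +/- mice and 10.19 ± 0.53 in AF of WT mice, and 6.39 ± 0.62 in NP of TonEBP +/- mice and 7.06 ± 0.12 in NP of WT mice. Cdca8 averaged 9.54 ± 0.26 in AF of TonEBP +/- mice and 9.25 ± 0.36 in AF of WT mice, and 6.73 ± 0.48 in NP of TonEBP +/- mice and 7.10 ± 0.26 in NP of WT mice. Birc5 belongs to the same complex. Birc5 averaged 10.55 ± 0.49 in AF of TonEBP +/- mice and 10.17 ± 0.12 in AF of WT mice, and 6.22 ± 0.06 in NP of TonEBP +/- mice and 7.16 ± 0.60 in NP of WT mice.

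Among spindle genes, Nusap1, Hmmr, Cenpe and Kif11 separated the AF groups without passing. Tpx2 did so narrowly, with the lowest TonEBP +/- array at 10.273 log2 and the highest WT array at 10.267. Nusap1 averaged 11.95 ± 0.54 in AF of TonEBP +/- mice and 10.73 ± 0.05 in AF of WT mice, and 7.20 ± 0.34 in NP of TonEBP +/- mice and 8.27 ± 1.26 in NP of WT mice. Tpx2 averaged 10.89 ± 0.63 in AF of TonEBP +/- mice and 10.05 ± 0.20 in AF of WT mice, and 6.43 ± 0.31 in NP of TonEBP +/- mice and 6.95 ± 0.63 in NP of WT mice. Hmmr averaged 10.44 ± 0.73 in AF of TonEBP +/- mice and 9.49 ± 0.20 in AF of WT mice, and 6.30 ± 0.08 in NP of TonEBP +/- mice and 6.67 ± 0.34 in NP of WT mice. Prc1 and Kif23 build the central spindle, and Cenpe is a kinetochore motor. Prc1 averaged 9.18 ± 0.85 in AF of TonEBP +/- mice and 8.66 ± 0.32 in AF of WT mice, and 5.05 ± 0.26 in NP of TonEBP +/- mice and 5.73 ± 0.20 in NP of WT mice. Kif23 averaged 11.49 ± 0.76 in AF of TonEBP +/- mice and 11.20 ± 0.43 in AF of WT mice, and 6.44 ± 0.56 in NP of TonEBP +/- mice and 7.06 ± 0.48 in NP of WT mice. Cenpe averaged 10.64 ± 0.36 in AF of TonEBP +/- mice and 9.90 ± 0.32 in AF of WT mice, and 6.36 ± 0.51 in NP of TonEBP +/- mice and 7.32 ± 0.52 in NP of WT mice. Ect2 and Anln act in cytokinesis, and Anln is the mitosis gene whose AF difference was below zero (-0.12 log2). Ect2 averaged 10.28 ± 0.67 in AF of TonEBP +/- mice and 9.45 ± 0.49 in AF of WT mice, and 6.53 ± 0.11 in NP of TonEBP +/- mice and 7.13 ± 0.75 in NP of WT mice. Anln averaged 8.22 ± 0.62 in AF of TonEBP +/- mice and 8.35 ± 0.08 in AF of WT mice, and 6.31 ± 0.49 in NP of TonEBP +/- mice and 6.25 ± 0.31 in NP of WT mice. Cenpf, a kinetochore protein, was above background on no array. Melk, a mitotic kinase, averaged 7.86 ± 0.67 in AF of TonEBP +/- mice and 7.02 ± 0.31 in AF of WT mice, and 4.19 ± 0.55 in NP of TonEBP +/- mice and 4.79 ± 0.26 in NP of WT mice. Cenpf averaged 7.03 ± 0.53 in AF of TonEBP +/- mice and 6.33 ± 0.23 in AF of WT mice, and 5.10 ± 0.37 in NP of TonEBP +/- mice and 4.96 ± 0.20 in NP of WT mice. In NP the mitosis genes with a difference above zero were Cenpf (0.14 log2), Anln (0.06), Ttk (0.04) and Bub3 (0.04), of which Anln turned below zero with array weights, Bub3 after quantile normalization, and all 4 in some setting or omission.

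Other genes of the cell cycle were taken from 5 lists outside the 46. In AF of TonEBP +/- mice, where 2.76% of all clusters were called higher, 3 of 10 other cyclins and kinases were: Ccnd3, a G1 cyclin (1.52 log2), Cdk2, the kinase of S phase (1.51), and Cdc25a, a phosphatase that activates it (1.45). Of 23 kinetochore, condensin and other mitotic genes 2 were called higher, the checkpoint gene Mad2l1 (1.13) and the kinetochore scaffold Knl1 (0.92). Of 7 inhibitors of cyclin-dependent kinases, 15 pocket proteins, DREAM complex and E2F factors, and 21 other replication factors, 0 were called (limma), with 1, 5 and 3 higher and 0 lower at an unadjusted p under 0.05 (11.4% and 11.8% of all clusters). In NP 0 genes of these 5 lists were called (limma; 0.113% of all clusters lower and 0% higher), with 0 higher and 0, 0, 2, 0 and 9 lower at an unadjusted p under 0.05 for the inhibitors, cyclins and kinases, pocket proteins, replication factors and mitotic genes (1.20% of all clusters higher and 2.52% lower). Their NP medians were -0.17, 0.03, -0.10, -0.22 and -0.46 log2. Relative to array medians, these lists also differed between NP and AF (limma, same order of lists). In WT mice 3, 4, 4, 3 and 1 genes were called higher in NP (33.7% of all clusters). Lower in NP were 1, 1, 3, 9 and 20 (31.3%). In TonEBP +/- mice 3, 3, 4, 3 and 1 were called higher (30.9%) and 3, 4, 7, 15 and 22 lower (25.3%). The mitotic gene higher in WT mice was Pttg1, with means of 12.45 log2 in NP and 9.02 in AF.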

How the data were processed

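RNA of 12 samples was hybridized to Clariom S Mouse arrays, and the labels' protocols give RNeasy Mini columns and the WT Plus kit. The authors deposited a log2 signal for each probe set, made with Affymetrix Expression Console and RMA, per the submitters' processing notes; versions, settings and the arrays normalized together are not given in the sources used here. RMA equalizes the arrays normalized together, so AF and NP were compared after subtracting each array's median. The interquartile range was 2.36 to 3.11 log2 on AF arrays and 3.61 to 3.80 on NP arrays. Subtracting medians leaves this unequal scale in place, so the sizes of tissue differences carry it.

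Of 28846 probe sets, 6640 controls were left out and 22206 clusters were fitted with limma 3.58.1 in R 4.3.3: 1 mean per group over all 12 arrays, 8 residual degrees of freedom, eBayes without trend, and Benjamini-Hochberg adjustment over all clusters, with calls at adjusted p under 0.05. The shared spread lets quieter NP arrays narrow that of AF. Levels count as above background over the 95th percentile of 23 background probe sets. A fold against a group with no array above that level uses the higher of level and signal, and is written as at least. The fit was tested on simulated data with 1 spread per cluster for all groups, which cannot test groups of unequal spread. Figures were drawn with matplotlib 3.10.9 in Python 3.11.15, and promoters come from RefSeq.

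Values on every array of at least 1 tissue are given for genes called in a genotype comparison or the interaction. The same holds for the smallest p in each class and tissue, and the widest tissue differences are named. The members, the other lists, the markers and this rule were chosen with earlier results of these data known. Alternatives were another scaling, quantile normalization, a background filter, an intensity trend, array weights, the compared arrays alone, and leaving out each array.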

Additional observations from a re-analysis of the deposited data

Results flagged for a closer look

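The genotype difference of 9 genes was not the same in NP and AF by the interaction term (limma adjusted p under 0.05), given as the difference in NP minus that in AF in log2. For replication genes it was -3.10 in E2f8, -2.55 in Rrm2 and -2.21 in Mcm5. For mitosis genes it was -3.47 in Mki67, -2.52 in Ube2c, -2.41 in Plk1, -2.02 in Ccnb2, -1.66 in Kif20a and -1.56 in Bub3. Each group held 3 arrays, too few for a test of single outlying samples. Of these calls, Mki67 was kept in 12 of 12 omissions of 1 array, E2f8 in 11, Rrm2 and Mcm5 in 9 each, and Bub3, Ube2c, Plk1, Ccnb2 and Kif20a in 5, 4, 3, 2 and 1.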

How the results depend on the processing

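The class medians kept their sign in AF and NP under the scalings, the filter, the trend, both array weights, the compared arrays alone and each omission; the trend and weights were added for the medians after seeing the data. No called gene changed sign, but 7 genes that were not called did in AF (Anln, Ccne2, E2f1, E2f7, Gins2, Mcm6 and Tyms), 6 in NP (Anln, Bub3, Cenpf, E2f7, Ttk and Tyms) and 3 in the interaction (Anln, Mcm6 and Tyms) under at least 1 alternative. Counts of called genes were less stable, and the cause was not tested. With array weights, whose estimation stopped before convergence, the counts were 18 in AF, 4 in NP, 3 averaged over the tissues and 26 in the interaction. A gene-by-gene estimate of the weights, added after seeing those counts and that warning, gave 8, 4, 2 and 14. Over all clusters in AF the first weights called 7187 and the gene-by-gene weights 2815, against 1347 in the main fit. From the arrays of the compared groups alone 0 of the 46 genes were called in AF and 0 in NP. Leaving out 1 array at a time gave 1 to 18 genes in AF, 0 to 5 in NP, 0 to 2 averaged, 1 to 25 in the interaction, 39 to 42 between tissues in WT mice and 46 in TonEBP +/- mice. The medians then ran from 0.29 to 0.60 for replication and 0.43 to 1.02 for mitosis genes in AF, and from -0.56 to -0.44 and -0.71 to -0.53 in NP. The highest AF count of these omissions, 18, came without AF TonEBP +/- array 2, where 4029 of all clusters were called. Limited to measured genes, a choice made after seeing the shares, a CHR stood in 83.3% of mitosis and 20.0% of replication promoters. No paired analysis was possible because the replicate numbers follow accession order and the labels do not say which AF and NP samples came from 1 mouse. Signal near background limits the NP values.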
